A study of Mus musculus with 15 samples.

Results

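The genes described here encode enzymes that write or erase methyl groups on histone lysines, together with the Polycomb and COMPASS subunits that work with them. They were taken as a fixed list of 43 named genes, written with earlier results of these data known, and the rule sets no threshold on expression. A transcript of the deposited table was matched to 42 of them, out of 20453 genes in all, and Setdb2 was not analysed here. RNA was sequenced from sorted mouse bone marrow in a study of the leukaemia fusion MLL-AF9, which joins part of the H3K4 methyltransferase MLL to part of AF9. The cDNA of the human fusion was placed in A2Lox-cre cells, from which chimeric lines were made and backcrossed to C57BL/6, and double heterozygous females were used. The labels name neither the promoter of the fusion gene nor an age, a dose or a time. After depletion of lineage-positive cells, sorting gates were set for granulocyte-macrophage progenitors (GMP) and for long-term haematopoietic stem cells, with no record of the gate used for each library. The 14 libraries compared were 4 of wtGMP, read here from the name as wild-type GMP, 4 of LTearly, 3 of LTlate and 3 of BMTGMP. The last 3 names are not spelled out in the labels and are called the MLL-AF9 groups. One further library carries LTearly in its title and LTlate in its column name, so it entered no comparison and is shown apart.

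Methyl groups on histone lysines are added by enzymes that mostly share a SET domain and are removed by flavin-dependent LSD1-type or iron-dependent JmjC enzymes. Methylation of H3K4 and H3K36 goes with active genes, while methylation of H3K9 and of H3K27, the latter written by Polycomb repressive complex 2 (PRC2), goes with silent ones. In leukaemias with an MLL fusion several of these enzymes, among them LSD1 (Kdm1a), Jmjd1c and Ezh2, have been studied as factors the leukaemic cells depend on.

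Levels are given as CPM, that is counts scaled to a common library size after TMM normalization, and changes as log2 fold changes ± standard error (SE) from 1 edgeR fit over 14553 genes. A gene was called where the Benjamini-Hochberg adjusted p of edgeR's quasi-likelihood test was under 0.05, and a call by DESeq2, run as an alternative, is named as such. The labels do not say that libraries of a group came from separate animals, so the p-values measure the spread between these samples, which may be technical. Counts on named genes were 2469869 to 6979138 in wtGMP, 2696288 to 8695512 in LTearly, 11569819 to 15093477 in LTlate and 4556530 to 10713184 in BMTGMP. Rank correlations within a group were 0.845 to 0.878 in LTearly and 0.884 to 0.925 in the other 3 groups. Cell markers moved with group. The summed level of 7 progenitor markers, with Mpo, Ctsg and Elane highest, was 19300 to 22600 CPM in wtGMP, 8030 to 11600 in BMTGMP, 1240 to 6530 in LTearly and 1450 to 1870 in LTlate. In wtGMP most of this sum was Mpo (16000 to 19200 CPM), and not all 7 genes followed it. Cd34 was at 212 to 278 CPM in wtGMP, 93.8 to 147 in LTlate and 3.37 to 6.7 in BMTGMP. Fcgr3 was at 225 to 302 CPM in wtGMP and 362 to 484 in LTlate. For 10 late neutrophil markers, led by S100a9, Ngp and Ltf, the sum was 56.9 to 147 CPM in wtGMP, 1420 to 6930 in BMTGMP, 5030 to 9080 in LTlate and 12800 to 25600 in LTearly. For 6 monocyte and macrophage markers, led by Lyz2, it was 893 to 1150, 1490 to 2500, 3280 to 4840 and 4910 to 7510 CPM in the same order. Lyz2 alone was at 360 to 564, 1110 to 1960, 2660 to 4150 and 4110 to 6800 CPM. Against wtGMP the median change of the 6 genes was 0.78 in LTearly, 0.73 in LTlate and -0.1 in BMTGMP. In BMTGMP Csf1r (39 to 161 CPM, wtGMP 168 to 194) and Ccr2 (61.3 to 130, wtGMP 161 to 235) were lower. Adgre1 was higher there (57 to 77.8 CPM, wtGMP 6.33 to 21.8). No gene of these 3 lists was at 0 in a whole group. For 5 eosinophil, basophil and mast cell markers, led by Prg2, the sum was 154 to 274 CPM in wtGMP, 8.56 to 31 in LTearly, 90.6 to 312 in LTlate and 2.72 to 6.98 in BMTGMP. Epx, Prss34 and Cpa3 were at 0 in BMTGMP and Prss34 in LTlate. All 5 were called lower in the mean of the MLL-AF9 groups, but by group 4 in BMTGMP, 2 in LTearly and 1 in LTlate. Prg2 was at 76.3 to 270 CPM in LTlate and 74.6 to 180 in wtGMP. Of 6 stem cell markers, Mecom measured 0 to 3.8 CPM in wtGMP, 20.3 to 34.9 in LTearly, 0 to 5.74 in LTlate and 0 to 0.837 in BMTGMP. Hlf differed from it, with 0 to 2.44, 0 to 4.26, 0 to 4.79 and 0.186 to 19.7 CPM in these groups. Of the 4 stem cell genes tested edgeR called 0 in any comparison. DESeq2 called 1 higher in LTearly than in wtGMP and 1 higher than in LTlate. Markers of B cells (at most 16.5 CPM summed), T and NK cells (24), erythroid cells (10.7) and megakaryocytes (25) stayed low in each of the 14 libraries.

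Promoter sequence is shown for the 3 genes that were called higher in each MLL-AF9 group than in wtGMP, as reference sequence for their start sites. RefSeq promoter windows (GRCm38.p6) were matched for 33 of the 43 listed genes, some of which have several start sites, for 43 windows in all. The 250 bases before the start follow, 5′ to 3′ on the gene's strand, with every CpG dinucleotide in capitals. They lie at chr6:39206774-39207023 (minus strand) for Kdm7a, chr5:25498784-25499033 (minus) for Kmt2c and chr10:67126838-67127087 (plus) for Jmjd1c.
Kdm7a: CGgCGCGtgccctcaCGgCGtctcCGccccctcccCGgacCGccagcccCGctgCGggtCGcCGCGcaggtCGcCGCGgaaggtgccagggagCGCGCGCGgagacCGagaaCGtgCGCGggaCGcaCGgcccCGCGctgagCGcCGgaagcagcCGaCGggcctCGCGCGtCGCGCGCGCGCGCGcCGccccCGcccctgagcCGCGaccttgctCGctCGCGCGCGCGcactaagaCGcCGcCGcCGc
Kmt2c: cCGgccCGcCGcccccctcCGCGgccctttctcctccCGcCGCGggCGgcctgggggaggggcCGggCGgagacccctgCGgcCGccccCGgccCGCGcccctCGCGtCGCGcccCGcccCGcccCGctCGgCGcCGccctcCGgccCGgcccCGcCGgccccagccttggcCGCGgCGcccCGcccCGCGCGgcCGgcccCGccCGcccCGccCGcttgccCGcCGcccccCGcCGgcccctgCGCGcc
Jmjd1c: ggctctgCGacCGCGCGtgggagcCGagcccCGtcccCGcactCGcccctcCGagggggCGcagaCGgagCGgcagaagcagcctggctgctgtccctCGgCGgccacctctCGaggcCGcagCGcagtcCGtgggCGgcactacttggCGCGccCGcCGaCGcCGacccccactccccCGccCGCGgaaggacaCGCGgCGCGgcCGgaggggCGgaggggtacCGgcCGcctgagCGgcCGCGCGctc
The Kdm7a stretch holds 56 CpG, the Kmt2c stretch 48 and the Jmjd1c stretch 40. Jmjd1c has a second window, not printed, with 11 CpG, while Kdm7a and Kmt2c have 1 window each. The median was 22 over the 43 windows of listed genes and 14 over 14734 windows of the genes tested. At least as many CpG as in Kdm7a were found in 2 of those 14734 windows (0.014%), its own among them. For Kmt2c this share was 0.29% and for Jmjd1c 2.1%. A high count was not limited to these genes: the window of Phf2, which was not called in any comparison, held 50 CpG. These are properties of the reference sequence, and no methylation was measured.

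Ezh2 and Suv39h1, which were called lower in LTearly and in the mean of the MLL-AF9 groups but not in LTlate or BMTGMP alone, have the motif TTTNNCGC, an E2F-type sequence searched on both strands, in 1 window each (of 1 for Ezh2 and 2 for Suv39h1). The 30 bases around each match follow, with the motif (or its reverse complement) in capitals. The Ezh2 match is at chr6:47595009-47595038 (minus strand) and the Suv39h1 matches are at chrX:8074541-8074570 and chrX:8074407-8074436 (both minus). Relative to the start, the first motif base is at 4 for Ezh2 and at -198 and -64 for Suv39h1. Both Suv39h1 matches lie before the start, and upstream and downstream below give only their order.
Ezh2: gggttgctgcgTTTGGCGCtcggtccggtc
Suv39h1, upstream match: ggagaaagatgGCGGAAAAtttaaaaggtg
Suv39h1, downstream match: ggaaggccggcGCGGCAAAcgtgggggccg
The motif was also found in the Suz12 window, and so in 6.98% of the windows of listed genes (3 windows), against 7.62% of the windows of tested genes and 5.17% of all 32851 windows. The share was close to that of other genes, and a match of letters is not a measured binding site.

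Of the 42 genes, 17 were called in at least 1 of 7 comparisons and 25 in none. Against wtGMP, 9 genes were higher and 4 lower in LTearly, which is 31% of the set where 20.1% of all tested genes were called (11.2% higher and 8.96% lower). In LTlate 4 were higher and 0 lower, or 9.52% of the set against 10.8% of all genes (7.5% higher, 3.26% lower). For the falls in LTlate, 8 genes had an unadjusted edgeR p under 0.05 and DESeq2 called 1. In BMTGMP 4 were higher and 1 lower, 11.9% of the set against 6.56% (4.4% higher, 2.16% lower). The mean of the 3 MLL-AF9 groups, called pooled below, gave 6 higher and 5 lower, 26.2% against 16.8% (9.2% higher, 7.6% lower). The share in LTlate lies near that of all genes. These 4 comparisons share the wtGMP libraries. The median change over the 42 genes was -0.01 in LTearly, 0.03 in LTlate and 0.11 in BMTGMP, beside 0.22, 0.00 and 0.07 over all tested genes. Jmjd1c, Kdm7a and Kmt2c were called higher in all 3 groups, and no gene of the set was called lower in all 3 by edgeR. DESeq2 called Kdm1a lower in all 3.

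**Figure D1:**
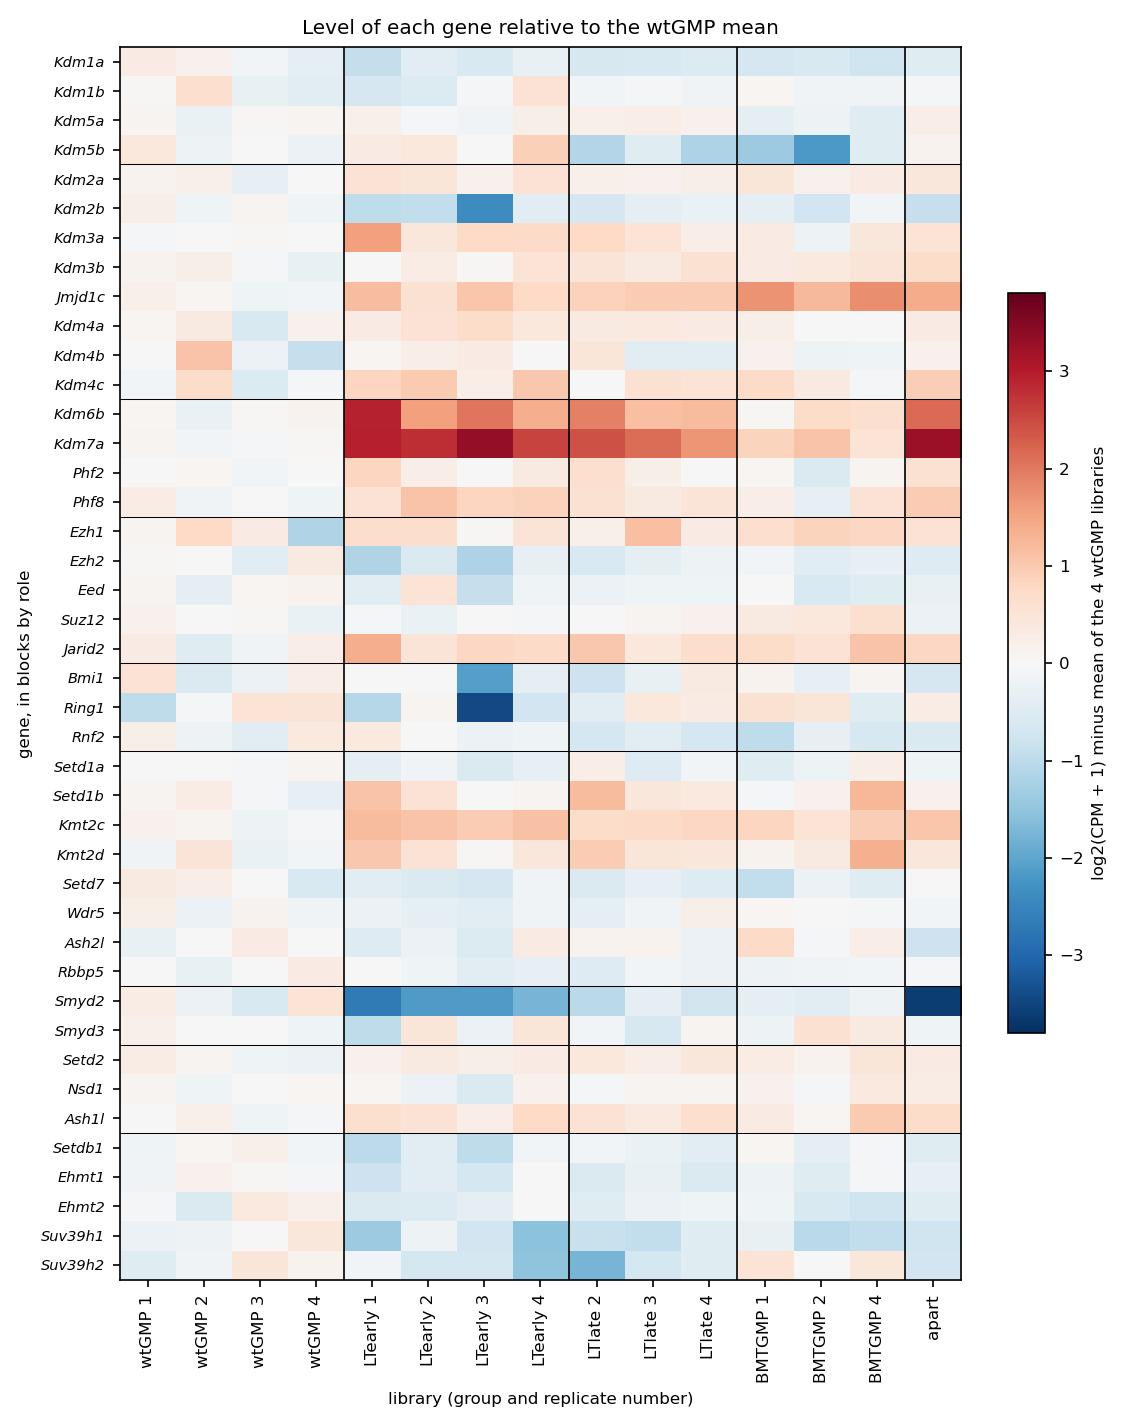
Each row is one of 42 genes, in blocks by role, and each column a library. Colour is log2(CPM + 1) minus the mean of the 4 wtGMP libraries, red higher and blue lower. Kdm7a and Kdm6b are red across LTearly and LTlate, and Smyd2 is blue across LTearly. The last column (apart) is the library with conflicting labels, which entered no comparison.

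By role, the 16 demethylases and the 18 methyltransferases and COMPASS subunits outside Polycomb lay on different sides of the median of all genes in LTearly. Of the demethylases 6 were higher and 1 lower (43.8% called), with a median of 0.42. Of the other 18 genes 2 were higher and 2 lower (22.2% called), with a median of -0.26. Over all tested genes 20.1% were called (11.2% higher, 8.96% lower), with a median of 0.22, so the called share of the 18 genes lies near that of all genes. A positive change was seen in 6 of the 18 and in 12 of the 16 demethylases. In LTlate the medians were 0.31 for the demethylases and -0.15 for the methyltransferase genes, and in BMTGMP 0.13 and 0.07. The difference between the 2 classes was not tested.

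The largest change of the set was in Kdm7a, a JmjC enzyme with a PHD finger that removes methyl groups from H3K9 and H3K27. It measured 81.6, 69.7, 73.6 and 78.5 CPM in the wtGMP libraries, 137, 163 and 108 in BMTGMP, 408, 331 and 245 in LTlate and 590, 537, 776 and 457 in LTearly. No library of any group overlapped with another group, and the order was wtGMP, BMTGMP, LTlate, LTearly. Kdm7a rose by 2.96 ± 0.20 in LTearly (adjusted p = 2.88e-11), by 2.11 ± 0.20 in LTlate (adjusted p = 3.09e-08) and by 0.84 ± 0.20 in BMTGMP (adjusted p = 0.00738). The BMTGMP call was lost without BMTGMP replicate 2 (adjusted p = 0.0739), and with the library of conflicting labels counted as LTlate (adjusted p = 0.0664). In bulk RNA such as this, more cells of a type and more RNA per cell cannot be told apart. The summed late neutrophil markers had the same order of groups as Kdm7a, and so had the summed monocyte and macrophage markers, led by Lyz2. The part of either in the Kdm7a change was not tested.

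Kdm6b, which encodes the H3K27 demethylase JMJD3, showed 32.4, 25.2, 31.6 and 33.3 CPM in wtGMP, 31.3, 49.9 and 46.9 in BMTGMP, 118, 68.7 and 71.4 in LTlate and 239, 92.4, 127 and 81.7 in LTearly. Every LTearly and LTlate library was above every wtGMP and BMTGMP library, while 1 BMTGMP library lay inside the wtGMP range. The rise was 2.14 ± 0.30, adjusted p = 7.51e-06 in LTearly and 1.49 ± 0.31, adjusted p = 0.00141 in LTlate. In BMTGMP the difference was 0.47 ± 0.31, adjusted p = 0.423. Phf8, a relative of Kdm7a that acts on H3K9 and H4K20, measured 52.8, 39.8, 44 and 38.6 CPM in wtGMP and 64.6, 93.2, 77.4 and 81.4 in LTearly, where it rose (0.85 ± 0.24, adjusted p = 0.0108). It measured 64.8, 54.9 and 61.1 CPM in LTlate, all above wtGMP, and 51.6, 34.7 and 64.7 in BMTGMP, which overlapped with wtGMP. Phf2, the other PHF-type member, ranged over 75.5 to 195 CPM in the 14 libraries and was not called.

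**Figure D2:**
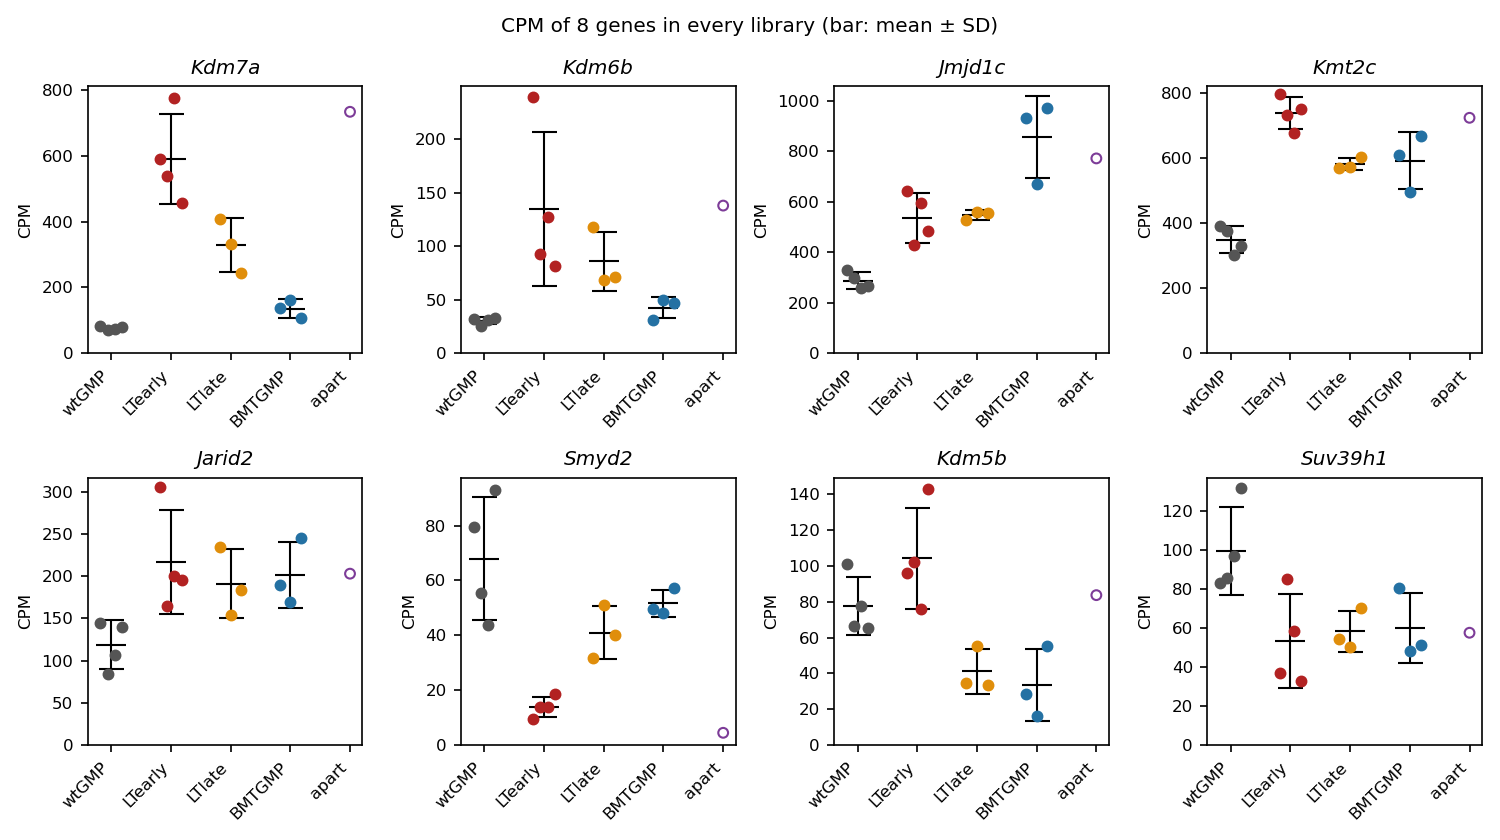
CPM of 8 genes in each library of 4 groups (points, with mean ± SD as bars) and in the library apart (open point), on linear axes that start at 0. All 10 MLL-AF9 libraries lie above the wtGMP libraries for Kdm7a, Jmjd1c, Kmt2c and Jarid2, and all 4 LTearly libraries lie below every other group for Smyd2.

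Among the 8 JmjC demethylases of H3K36 and H3K9, 3 rose and 1 fell in LTearly, and 1 rose in each of LTlate and BMTGMP. That 1 was Jmjd1c, a KDM3-family gene. Jmjd1c stood at 328, 299, 258 and 267 CPM in wtGMP, 641, 427, 594 and 483 in LTearly, 526, 560 and 555 in LTlate and 929, 669 and 970 in BMTGMP. All MLL-AF9 libraries were above wtGMP and all BMTGMP libraries were above every other library, while LTearly and LTlate overlapped with each other. The rise was 1.57 ± 0.17, adjusted p = 4.94e-07 in BMTGMP, 0.92 ± 0.17, adjusted p = 0.00048 in LTlate and 0.90 ± 0.16, adjusted p = 0.000178 in LTearly.

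Kdm3a, which removes H3K9 methylation, showed 46.3, 49.2, 50 and 48.5 CPM in wtGMP and 144, 65.8, 82.2 and 80.7 in LTearly. It rose in LTearly (0.94 ± 0.25, adjusted p = 0.00662) with no overlap, though not without LTearly replicate 1 (adjusted p = 0.0685). LTlate had 82.9, 70.3 and 58.5 CPM, above wtGMP but not called, and BMTGMP 60.7, 41.9 and 66.2, overlapping with it. Kdm4c, a demethylase of H3K9 and H3K36, measured 47.9, 84.6, 35.7 and 49.1 CPM in wtGMP, 91.8, 104, 61.7 and 107 in LTearly, 52.7, 77 and 75.2 in LTlate and 87.1, 66 and 49 in BMTGMP, and all groups overlapped. Its rise in LTearly (0.76 ± 0.27, adjusted p = 0.0439) was not called with any one left out of wtGMP replicates 1, 3 and 4 and LTearly replicates 1, 2 and 4 (adjusted p = 0.0768 to 0.157). Kdm2b, which acts on H3K36 and brings a variant PRC1 to CpG islands, moved the other way. It had 136, 104, 124 and 105 CPM in wtGMP and 58.7, 59.9, 21.3 and 88.1 in LTearly, with no overlap, and fell there (-1.03 ± 0.28, adjusted p = 0.00862). The LTlate libraries (74, 89.2 and 97.1 CPM) were also below wtGMP, and 1 of the BMTGMP libraries (90.9, 70.4 and 108 CPM) was not. Kdm2a (116 to 213 CPM), Kdm3b (160 to 291 CPM), Kdm4a (54.3 to 135 CPM) and Kdm4b (7.92 to 33.9 CPM) were not called in the main edgeR fit. DESeq2 called Kdm2a higher in LTearly (adjusted p = 0.00783) and Kdm3b higher in LTlate (adjusted p = 0.0397) and in the pooled comparison (adjusted p = 0.0244). In LTearly edgeR called Kdm2a with median-ratio size factors (adjusted p = 0.0366) or without LTearly replicate 3 (adjusted p = 0.0383). In LTlate it called Kdm3b with the library of conflicting labels counted as LTlate (adjusted p = 0.0377).

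Of the 4 H3K4 demethylases 1 fell in BMTGMP and another in the pooled comparison. Kdm5b, an eraser of H3K4 trimethylation, separated LTearly from the other MLL-AF9 groups. It measured 101, 66.5, 77.4 and 65.6 CPM in wtGMP, 95.9, 102, 76 and 143 in LTearly, 34.5, 55.3 and 33.3 in LTlate and 28.7, 16.1 and 55.3 in BMTGMP. LTlate and BMTGMP overlapped with each other and lay below all wtGMP and LTearly libraries. Kdm5b fell in BMTGMP (-1.23 ± 0.33, adjusted p = 0.0211), a call lost with any one left out of wtGMP replicate 1 and BMTGMP replicates 1 and 2 (adjusted p = 0.0801 to 0.133) and with transcripts summed (adjusted p = 0.0501). In LTlate the difference was -0.92 ± 0.33, adjusted p = 0.0703, and it was called without LTlate replicate 3 (adjusted p = 0.0455). Its relative Kdm5a ranged over 187 to 311 CPM and was not called by edgeR. The log2 ratio of Kdm5a to Kdm5b counts within a library, which needs no scaling, was 1.76 ± 0.26 (SD, n = 4) for the wtGMP libraries and 1.41 ± 0.26 (n = 4) for LTearly. It was 2.91 ± 0.36 (n = 3) for LTlate and 2.80 ± 1.02 (n = 3) for BMTGMP.

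Kdm1a, or LSD1, which removes mono- and dimethyl groups from H3K4, had 118, 107, 88.4 and 75.4 CPM in wtGMP, 50.2, 71.1, 63.9 and 79.4 in LTearly, 63.1, 64 and 65.9 in LTlate and 60.7, 63.9 and 55.7 in BMTGMP. Of 10 MLL-AF9 libraries 1, an LTearly one, reached into the wtGMP range. Kdm1a fell in the pooled comparison (-0.61 ± 0.18, adjusted p = 0.0146) and by edgeR was not called in any of the 3 groups alone. DESeq2 called it lower in LTearly (-0.50, adjusted p = 0.0467), LTlate (-0.61, adjusted p = 0.0276) and BMTGMP (-0.70, adjusted p = 0.0137), and edgeR called it in LTearly without wtGMP replicate 4 (adjusted p = 0.0497) or LTearly replicate 4 (adjusted p = 0.0368). The pooled call was lost without wtGMP replicate 1 (adjusted p = 0.0888) and without wtGMP replicate 2 (adjusted p = 0.0564). Kdm1b ranged over 22.8 to 57.1 CPM and was not called.

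**Figure D3:**
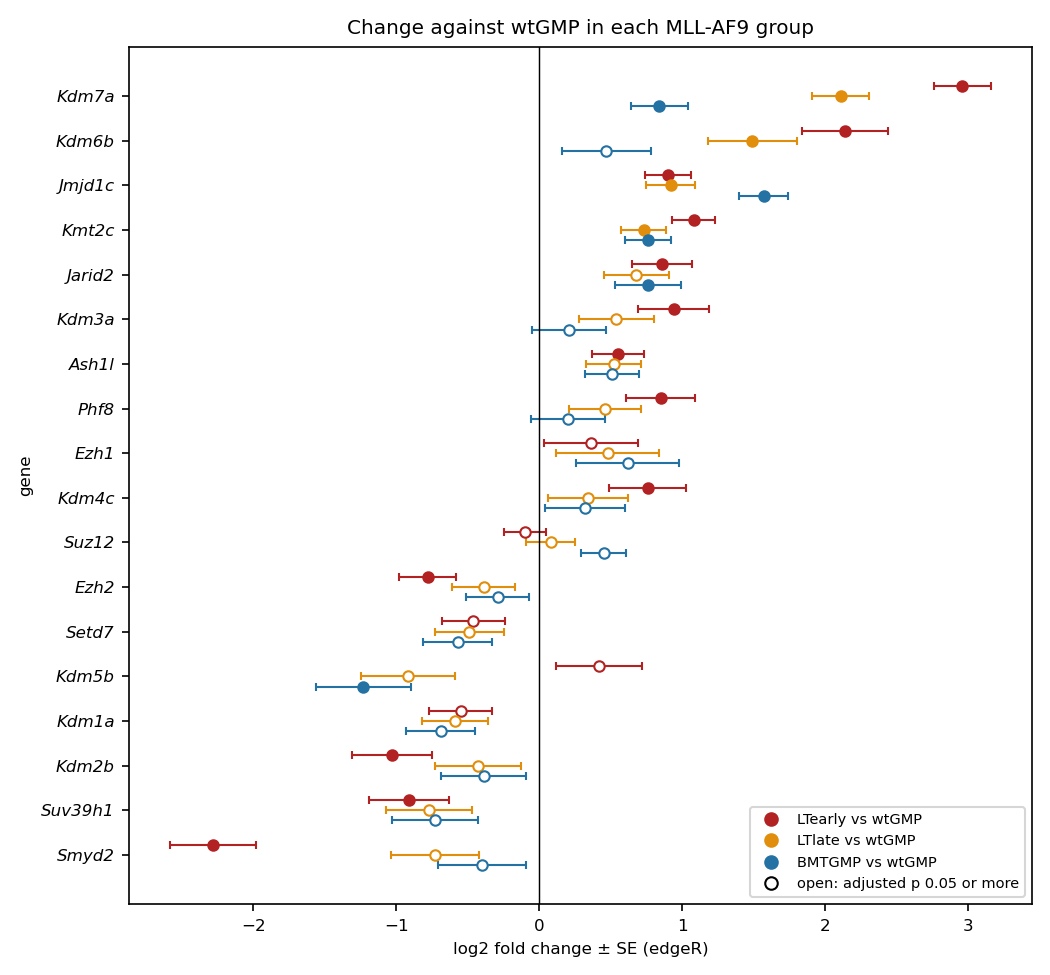
Log2 fold change against wtGMP (x axis, bars are ± SE) for the 17 genes called in any comparison and Ezh1, in LTearly, LTlate and BMTGMP. Filled points have an adjusted p under 0.05 by edgeR's quasi-likelihood test. Kdm7a is at 2.96 in LTearly, 2.11 in LTlate and 0.84 in BMTGMP, while Jmjd1c is highest in BMTGMP at 1.57.

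Within PRC2, Jarid2 and Ezh2 moved in opposite directions. Jarid2, a subunit with an inactive demethylase domain that helps place the complex, measured 145, 84.6, 106 and 140 CPM in wtGMP, 306, 165, 200 and 195 in LTearly, 235, 154 and 184 in LTlate and 190, 170 and 245 in BMTGMP. All 10 MLL-AF9 libraries were above all wtGMP libraries. It rose in LTearly (0.86 ± 0.21, adjusted p = 0.00396), in BMTGMP (0.76 ± 0.23, adjusted p = 0.0399) and in the pooled comparison (0.76 ± 0.18, adjusted p = 0.0038). In LTlate the difference was 0.68 ± 0.23, adjusted p = 0.0513, called without wtGMP replicate 1 (adjusted p = 0.0455) or LTlate replicate 3 (adjusted p = 0.0381). The BMTGMP call was lost with any one left out of wtGMP replicates 2 and 3 and BMTGMP replicates 1 and 4 (adjusted p = 0.056 to 0.228), and with transcripts summed (adjusted p = 0.0612).

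Ezh2, the main catalytic subunit of PRC2 in dividing cells, had 235, 230, 170 and 288 CPM in wtGMP, 103, 155, 99.1 and 181 in LTearly, 151, 178 and 200 in LTlate and 213, 170 and 182 in BMTGMP. All MLL-AF9 groups overlapped with wtGMP, in LTearly through 1 library. Ezh2 fell in LTearly (-0.78 ± 0.20, adjusted p = 0.00635) and in the pooled comparison (-0.48 ± 0.17, adjusted p = 0.0429), the latter lost with any one left out of wtGMP replicates 1, 2 and 4, LTearly replicate 3, LTlate replicates 2 and 3 and BMTGMP replicates 2 and 4 (adjusted p = 0.0507 to 0.226) and with transcripts summed (adjusted p = 0.0728). Of 14 proliferation genes, with Mki67, Top2a and Mcm3 highest, 6 were lower and 0 higher in LTearly. Over all tested genes 8.96% were lower and 11.2% higher there. The summed level of the 14 genes was 10800 to 11600 CPM in wtGMP and 8790 to 13300 in LTearly. Most of that sum was Mki67, at 5850 to 6340 CPM in wtGMP and 5880 to 9270 in LTearly. Top2a was at 1860 to 2240 and 1200 to 2070 CPM, and Mcm3 at 676 to 836 and 243 to 473. The part of proliferation in the Ezh2 change was not tested.

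Ezh1, the paralog that serves mainly in non-dividing cells, had 28.5, 45.3, 33 and 11.4 CPM in wtGMP, 42.8, 43.2, 27.5 and 38 in LTearly, 30.8, 59.7 and 33.1 in LTlate and 41.5, 48.5 and 46.1 in BMTGMP. The groups overlapped and Ezh1 was not called in any comparison. The log2 ratio of Ezh1 to Ezh2 counts was -3.04, -2.34, -2.36 and -4.64 in wtGMP, -1.26, -1.84, -1.84 and -2.25 in LTearly, -2.30, -1.57 and -2.59 in LTlate, and -2.36, -1.80 and -1.98 in BMTGMP. All LTearly libraries were above all wtGMP libraries, and 2 of the other 6 MLL-AF9 libraries were at or below the highest wtGMP value. The mean was -3.09 ± 1.08 (SD, n = 4) in wtGMP and -1.98 ± 0.40 (n = 10) in the MLL-AF9 libraries, a difference of 1.11 or 2.16-fold (2-sided exact permutation p = 0.00799). Without wtGMP replicate 4 the difference was 0.60 and the exact permutation p was 0.0524, so the call rests on that library. By group, the exact permutation p was 0.0286 for LTearly, which is the smallest that 4 against 4 libraries can give, 0.229 for LTlate and 0.171 for BMTGMP, where the smallest possible is 0.0286.

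**Figure D4:**
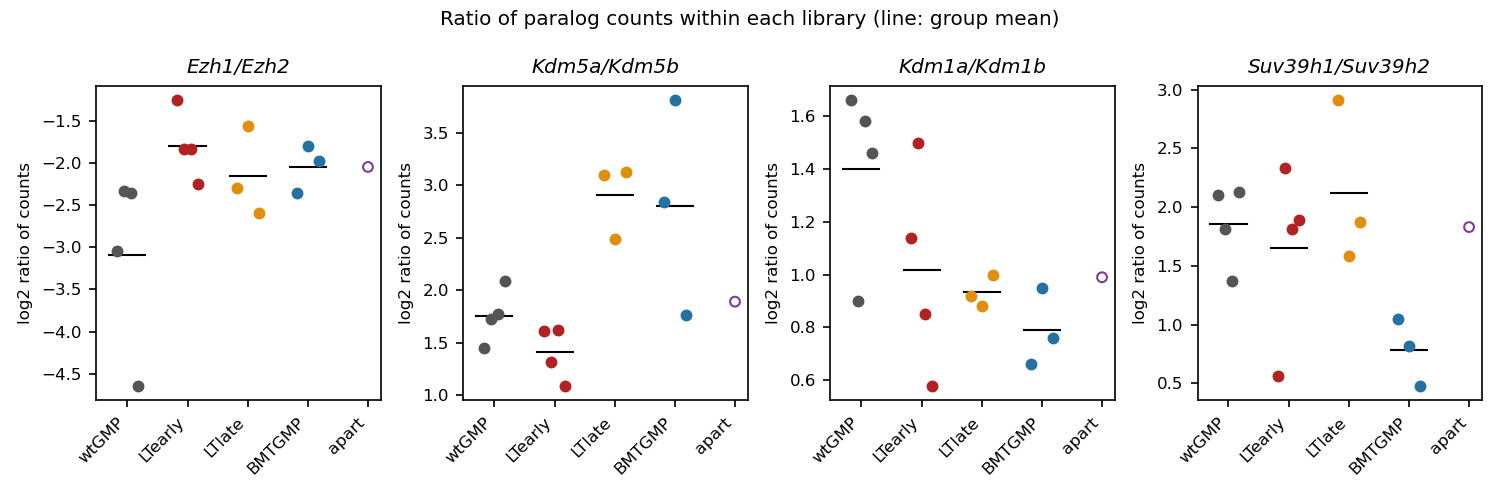
Log2 ratio of the counts of a gene to those of its paralog within each library (points, with a line at the group mean), for Ezh1 to Ezh2, Kdm5a to Kdm5b, Kdm1a to Kdm1b and Suv39h1 to Suv39h2. The wtGMP point at -4.64 for Ezh1 to Ezh2 is replicate 4, and Kdm5a to Kdm5b is above 2.4 in all LTlate libraries and under 1.7 in all LTearly ones.

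Suz12, a core PRC2 subunit, measured 279, 252, 258 and 208 CPM in wtGMP, 239, 206, 250 and 233 in LTearly, 247, 269 and 276 in LTlate and 313, 326 and 381 in BMTGMP, where all libraries lay above every other. Against wtGMP edgeR did not call it (0.45 ± 0.16, adjusted p = 0.114 in BMTGMP), while DESeq2 called it higher in BMTGMP (0.44, adjusted p = 0.0269). Eed, the subunit that binds trimethylated H3K27, ranged over 82.6 to 216 CPM without a call. Of the 3 PRC1 genes 0 were called in the pooled comparison by edgeR, with 1 under an unadjusted p of 0.05, and DESeq2 called 0. Bmi1 ranged over 6.97 to 48.8 CPM and the ubiquitin ligase gene Rnf2 over 39.6 to 103 CPM. Its paralog Ring1 had 0 counts in LTearly replicate 3, which allows up to 1.1 CPM for counting error only, and 4.16 to 15.1 CPM in the other 13 libraries.

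Of the 8 genes for H3K4 methyltransferases and COMPASS core subunits, 1 rose in each MLL-AF9 group. This was Kmt2c (MLL3), which monomethylates H3K4 at enhancers. It stood at 392, 376, 302 and 329 CPM in wtGMP, 797, 734, 678 and 750 in LTearly, 569, 572 and 604 in LTlate and 611, 496 and 668 in BMTGMP. All MLL-AF9 libraries were above wtGMP, and all LTearly libraries were above the rest. Kmt2c rose by 1.08 ± 0.15 in LTearly (adjusted p = 4.99e-06), 0.73 ± 0.16 in LTlate (adjusted p = 0.00187) and 0.76 ± 0.16 in BMTGMP (adjusted p = 0.00191). Its paralog Kmt2d (MLL4) showed a difference of 0.60 ± 0.23, adjusted p = 0.0872 in the pooled comparison and was not called by edgeR, but was called by DESeq2 (0.62, adjusted p = 0.0362) and by edgeR without wtGMP replicate 2 (adjusted p = 0.0291) or BMTGMP replicate 1 (adjusted p = 0.0313). Setd7, a monomethyltransferase for H3K4 and other proteins, fell in the pooled comparison (-0.51 ± 0.18, adjusted p = 0.0495), close to the threshold. That call was lost with any one left out of wtGMP replicates 1, 2 and 3, LTearly replicates 2 and 3, LTlate replicates 2, 3 and 4 and BMTGMP replicates 1 and 4 (adjusted p = 0.0568 to 0.212) and by DESeq2 (adjusted p = 0.0514). Setd1a (126 to 221 CPM), Setd1b (30.7 to 93.2 CPM) and the shared core subunits Wdr5 (67.5 to 106 CPM), Ash2l (63.5 to 153 CPM) and Rbbp5 (67.9 to 120 CPM) were not called.

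The largest fall of the set was in Smyd2, a methyltransferase for H3K36 and for non-histone proteins such as p53. It had 79.6, 55.5, 43.7 and 93.1 CPM in wtGMP, 9.3, 13.9, 13.9 and 18.4 in LTearly, 31.6, 51 and 40.2 in LTlate and 49.7, 48 and 57.2 in BMTGMP. The LTearly libraries were below all others, and LTlate and BMTGMP overlapped with wtGMP. Smyd2 fell in LTearly (-2.28 ± 0.30, adjusted p = 3.31e-06) and in the pooled comparison (-1.14 ± 0.23, adjusted p = 0.000659). The difference was -0.73 ± 0.31, adjusted p = 0.143 in LTlate and -0.40 ± 0.31, adjusted p = 0.531 in BMTGMP. Smyd3 ranged over 17.6 to 52.9 CPM and was not called.

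Of the 3 H3K36 methyltransferase genes Ash1l, which dimethylates H3K36 and opposes Polycomb, rose. It measured 255, 294, 229 and 246 CPM in wtGMP, 391, 373, 306 and 432 in LTearly, 371, 332 and 396 in LTlate and 317, 270 and 509 in BMTGMP. All but 1 of the MLL-AF9 libraries, a BMTGMP one, were above wtGMP. The rise was 0.55 ± 0.18, adjusted p = 0.0275 in LTearly, lost with any one left out of wtGMP replicates 1, 3 and 4 and LTearly replicates 1 and 4 (adjusted p = 0.0576 to 0.0905), and 0.53 ± 0.15, adjusted p = 0.0165 in the pooled comparison, lost without wtGMP replicate 3 (adjusted p = 0.0789) and without wtGMP replicate 4 (adjusted p = 0.0608). Setd2, the enzyme for H3K36 trimethylation, ranged over 590 to 939 CPM and Nsd1, an H3K36 dimethyltransferase, over 418 to 784 CPM, and edgeR called neither. DESeq2 called Setd2 higher in the pooled comparison (0.30, adjusted p = 0.0231).

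Among the 5 H3K9 methyltransferase genes matched, all 5 had a negative change in LTearly, in LTlate and in the pooled comparison, and 4 in BMTGMP, where Suv39h2 showed 0.30 ± 0.41, adjusted p = 0.789. Of the 5, 1 was called in LTearly and pooled, and none in LTlate or BMTGMP, by edgeR. Suv39h1, which writes H3K9 trimethylation in heterochromatin, had 83, 85.8, 96.9 and 132 CPM in wtGMP, 36.9, 85, 58.3 and 32.8 in LTearly, 54.3, 50.4 and 70.3 in LTlate and 80.5, 48 and 51.1 in BMTGMP. LTlate and BMTGMP lay below all wtGMP libraries, and 1 LTearly library reached into their range. Suv39h1 fell in LTearly (-0.91 ± 0.28, adjusted p = 0.0195), lost with any one left out of wtGMP replicate 4 and LTearly replicates 1 and 4 (adjusted p = 0.0545 to 0.0915), and in the pooled comparison (-0.80 ± 0.22, adjusted p = 0.0116), lost without wtGMP replicate 4 (adjusted p = 0.0964). Setdb1 (50.7 to 116 CPM), Ehmt1 (163 to 310 CPM), Ehmt2 (68.5 to 152 CPM) and Suv39h2 (7.18 to 38.9 CPM) were not called with all libraries. Without LTearly replicate 4, Setdb1 (adjusted p = 0.0112) and Ehmt1 (adjusted p = 0.00752) were called lower in LTearly and Ehmt1 pooled (adjusted p = 0.0184), and without wtGMP replicate 2 Ehmt2 was called lower pooled (adjusted p = 0.0361). The median of the 5 genes in the pooled comparison was -0.42, beside 0.05 over all tested genes.

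The MLL-AF9 groups were also compared with each other. LTearly and LTlate differed at 1 gene of the set, or 2.38% where 0.206% of all genes (30 genes) were called (0.117% higher and 0.0893% lower). This was Smyd2, lower in LTearly (-1.55 ± 0.31, adjusted p = 0.0262), a call lost with any one left out of LTearly replicates 1 and 2 and LTlate replicates 3 and 4 (adjusted p = 0.0528 to 0.137), with transcripts summed (adjusted p = 0.0641) and with the library of conflicting labels counted as LTlate (adjusted p = 0.41). Kdm7a (0.85 ± 0.20, adjusted p = 0.0689) and Kdm5b (1.35 ± 0.33, adjusted p = 0.0748) missed the threshold although neither gene's groups overlapped, and DESeq2 called both. LTearly and BMTGMP differed at 6 genes, 14.3% of the set against 6.2% of all genes (3.39% higher, 2.8% lower). Kdm7a (2.11 ± 0.21, adjusted p = 4.13e-07), Kdm6b (1.66 ± 0.32, adjusted p = 0.00189) and Kdm5b (1.65 ± 0.34, adjusted p = 0.00308) were higher in LTearly. Smyd2 (-1.88 ± 0.31, adjusted p = 0.000422), Jmjd1c (-0.67 ± 0.17, adjusted p = 0.0171) and Suz12 (-0.55 ± 0.16, adjusted p = 0.0437) were lower in it. The Jmjd1c call was lost with any one left out of LTearly replicate 2 and BMTGMP replicates 1 and 4 (adjusted p = 0.0583 to 0.0811). The Suz12 call was lost with any one left out of LTearly replicate 2 and BMTGMP replicates 1, 2 and 4 (adjusted p = 0.0683 to 0.194), with median-ratio size factors (adjusted p = 0.0712) and with no low-count filter (adjusted p = 0.0606). Between LTlate and BMTGMP 1 gene was called, 2.38% against 1.98% of all genes (1.52% higher, 0.46% lower), and this was Kdm7a, higher in LTlate (1.27 ± 0.22, adjusted p = 0.000939). DESeq2 also called Kdm5a higher in LTearly (0.46, adjusted p = 0.00965) and in LTlate (0.53, adjusted p = 0.0069) than in BMTGMP, with no overlap in either. It also called Phf8 (adjusted p = 0.0463) and Kmt2c (adjusted p = 0.0442) higher in LTearly than in BMTGMP and Jmjd1c lower in LTlate than in BMTGMP (adjusted p = 0.0165).

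Counts of genes whose groups did not overlap were read against the same count over all genes. In LTearly 8 genes of the set lay above and 3 below all wtGMP libraries, where 11.5% and 10.3% of all tested genes did. In LTlate 11 lay above and 7 below (15.1% and 10.9% of all genes), and in BMTGMP 6 and 3 (10.9% and 8.32%). All 10 MLL-AF9 libraries were above wtGMP at 4 genes, Jmjd1c, Kdm7a, Jarid2 and Kmt2c, and below it at 0, where 4.56% and 3.61% of all genes did so. Between MLL-AF9 groups, 4 genes of the set were above and 1 below for LTearly against LTlate (4.51% and 5.67% of all genes). LTearly against BMTGMP gave 7 and 5 (7.78% and 7.79%), and LTlate against BMTGMP 4 and 3 (10.8% and 9.65%).

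Other genes of the same machinery were read from lists of partners. In the pooled comparison 9.2% of all tested genes were called higher and 7.6% lower, and no list was tested against these shares. Of 6 PRC2 partners 2 fell in the pooled comparison, Rbbp7 (-0.82 ± 0.14, adjusted p = 7.27e-05), a histone-binding subunit, and Mtf2 (-0.82 ± 0.14, adjusted p = 0.000121), which directs PRC2 to CpG islands. Both had a negative change in each MLL-AF9 group, beside the fall of Ezh2 and the rise of Jarid2. Of 7 readers and partners of H3K9 methylation 4 fell and 1 rose, among them the HP1 genes Cbx1 (-0.92 ± 0.21, adjusted p = 0.00187) and Cbx5 (-0.55 ± 0.14, adjusted p = 0.0086) and the corepressor gene Trim28 (-0.64 ± 0.17, adjusted p = 0.00981). Of 9 COMPASS partners 3 fell and 1 rose. Psip1, which encodes the MLL-binding protein LEDGF (-0.91 ± 0.18, adjusted p = 0.000694), and Men1, which encodes menin (-0.84 ± 0.24, adjusted p = 0.0138), fell, and the coactivator gene Ncoa6 rose (0.84 ± 0.19, adjusted p = 0.00173).

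Of 8 LSD1 partners the deacetylase gene Hdac2 fell (-0.74 ± 0.14, adjusted p = 0.000479) and Gfi1, a repressor that recruits LSD1, rose (1.13 ± 0.27, adjusted p = 0.00521). By group the Gfi1 difference was 2.05 ± 0.32, adjusted p = 0.000335 in BMTGMP, 0.97 ± 0.32, adjusted p = 0.0587 in LTlate and 0.39 ± 0.30, adjusted p = 0.417 in LTearly. Of 15 other lysine methyltransferases 2 rose, Nsd3 (0.76 ± 0.17, adjusted p = 0.00208) and Kmt2e (0.52 ± 0.15, adjusted p = 0.0169). Of 15 further PRC1 subunits 1 fell, Cbx6 (-3.32 ± 0.84, adjusted p = 0.0133), a reader of H3K27 methylation. In these lists of 15 genes the counts lie near the shares over all tested genes (9.2% higher and 7.6% lower). Of 6 other demethylases 0 were called in the pooled comparison, where 0 had an unadjusted edgeR p under 0.05 and DESeq2 called 0. Kdm5c, the listed relative of Kdm5a and Kdm5b, showed a difference of -0.24 ± 0.16, adjusted p = 0.336 there.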

How the data were processed

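The authors deposited 1 table of expected counts for 28847 RefSeq transcripts, aligned to mm9 with up to 100 hits per read per the file headers. The submitters' processing notes name Bowtie 0.9.9.1. Values with several hits are split, so 13.75% of the deposited estimated counts are not whole (tolerance 1e-06), and no scaling was applied. RNA (150 ng) was prepared with a low-input kit and sequenced on a HiSeq 2000, per the labels' protocols.

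Transcripts were matched to genes in RefSeq (25977) or GENCODE (115) tables. Unmatched ones held 3.5% to 4.2% of counts. Since transcripts of a gene share reads, only the one with the highest mean was kept per gene, and its expected counts were rounded to whole numbers. Of the listed genes 13 have several transcripts, the next one holding 67.6% to 100% of the first. Of 105 pairs of libraries 0 were identical. Of the deposited columns 1 has no sample and was not used, and the library with conflicting labels was left out of all comparisons. Gene totals per library, 2469869 to 15093477, set the precision, and counting intervals and floors (3 counts) cover counting error only.

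The 14 libraries entered 1 fit with a mean per group in edgeR 4.0.16 (R 4.3.3): TMM scaling, filterByExpr, robust quasi-likelihood test, 2-sided, Benjamini-Hochberg over 14553 genes. The common biological coefficient of variation was 0.748. Pooled is the mean of the 3 groups on the log2 scale with equal weights. Ratios of paralogs used counts plus 0.5, with a 2-sided exact permutation test for Ezh1 to Ezh2 only. The members, lists and tests were chosen with earlier results of these data known. Values in each library are given for called members with at least 5 CPM in the higher group, up to the 16 with the smallest adjusted p, and for Ezh1 and Ezh2. The others are given by range, and up to 3 called genes are named per partner list.

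Alternatives were DESeq2 1.42.0, median-ratio size factors, no low-count filter, a replicate block, the left-out library placed in either group, summed transcripts and each library left out. Thinning every library to the lowest total was added after seeing the data. On simulated data with the same groups edgeR recovered, of genes changed 2-fold, 10% in LTearly, 13% in LTlate, 17% in BMTGMP and 27% pooled against wtGMP, and at 4-fold 48%, 38%, 44% and 52%. False calls numbered 2, 1, 1 and 7 among 13335, 13332, 13356 and 13335 genes. The simulation changed 100 genes at each fold, drawn at random over all expression levels, where 2927 genes were called in LTearly in the data. Its shares are therefore not the recovery to be had for the members.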

Additional observations from a re-analysis of the deposited data

Results flagged for a closer look

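In 2 of 84 groups of 4 libraries examined, 1 library stood far from the other 3 by Dixon's criterion, which marks about 1 in 20 groups by chance. Eed measured 119 CPM in wtGMP replicate 2 and 160 to 167 CPM in the other wtGMP libraries, so the lowest value is set apart. Kmt2d measured 501 CPM in the same library and 299 to 326 CPM in the other 3, so there the highest value is set apart. Neither gene was called in a comparison by edgeR.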

How the results depend on the processing

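The number of called members stayed within 1.5 times of that reported in most settings, and no result changed direction. With the left-out library counted as LTlate, 7 members were called for LTlate vs wtGMP, 0 for LTearly vs LTlate and 2 for LTlate vs BMTGMP. With it counted as LTearly, 2 were called for LTearly vs LTlate. With transcripts summed, 3 were called for BMTGMP vs wtGMP and 0 for LTearly vs LTlate. DESeq2 called 3 members for LTearly vs LTlate and 3 for LTlate vs BMTGMP, and without a low-count filter 3 were called for LTearly vs LTlate. The cause of these shifts was not tested. Leaving out 1 library at a time gave 9 to 14 called members for LTearly vs wtGMP, 4 to 6 for LTlate vs wtGMP, 3 to 5 for BMTGMP vs wtGMP, 8 to 13 pooled, 0 to 2 for LTearly vs LTlate, 4 to 8 for LTearly vs BMTGMP and 1 to 2 for LTlate vs BMTGMP. The BMTGMP count was 3 without BMTGMP replicate 1 or 2, and the LTearly vs LTlate count was 0 without LTearly replicate 1 or 2 or LTlate replicate 3 or 4 and 2 without LTearly replicate 4. LTlate vs BMTGMP gave 2 without BMTGMP replicate 2. The Ezh1 to Ezh2 difference ranged from 0.60 (exact permutation p = 0.0524, without wtGMP replicate 4) to 1.37.

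Of 41 calls of single members over the 7 comparisons, 26 held in every alternative and 15 were lost in at least 1. A further 31 differences of single members were called in at least 1 alternative, 17 of them by DESeq2. Over all genes, LTearly vs LTlate gave 30 calls, but 251 by DESeq2, 141 with no low-count filter, 86 and 0 with the left-out library as LTearly or LTlate, and 4 to 198 with 1 library left out. LTlate vs BMTGMP gave 288, 564 by DESeq2 and 155 to 311 with 1 library left out. LTearly vs BMTGMP gave 902, 1471 by DESeq2 and 581 at the lowest, without BMTGMP replicate 1. LTlate vs wtGMP gave 1567, and 917 without LTlate replicate 2.

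Deviations from group means were not more alike between libraries of the same replicate number. They correlated at -0.009 on average over 18 same-numbered pairs (-0.142 to 0.124) and at 0.003 over 55 others. These pairs share libraries, so the correlations do not settle whether the replicate numbers mark a pairing. Titles also share codes: grD2 (LTearly replicate 1, LTlate replicate 3), grLT3 (LTearly replicate 3, LTlate replicate 2, the library apart) and grV (BMTGMP replicates 1 and 2). The deviations correlated at -0.015 for the LTearly and LTlate libraries of grD2 and 0.101 for those of grLT3. No fit used these codes, so a shared origin was not tested. With the replicate number as a block, 13, 5, 4 and 11 members were called against wtGMP (LTearly, LTlate, BMTGMP, pooled) and 1, 5 and 1 between the MLL-AF9 groups. The block lost the calls of Jarid2 in BMTGMP (adjusted p = 0.0579), Setd7 pooled (adjusted p = 0.0816) and Suz12 in LTearly vs BMTGMP (adjusted p = 0.0628), and added Jarid2 in LTlate (adjusted p = 0.0184) and Kdm2b pooled (adjusted p = 0.0386). Depth limits the members with the fewest counts, such as Ring1, most, and a member that was not called may still differ.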

Other observations

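In the library with conflicting labels 32 of the 42 members lay inside the range of the 4 LTearly libraries, 18 inside that of LTlate, 17 inside that of BMTGMP and 15 inside that of wtGMP. These ranges rest on 4, 3, 3 and 4 libraries. The library had 733 CPM of Kdm7a, 138 of Kdm6b, 771 of Jmjd1c, 724 of Kmt2c and 203 of Jarid2. Smyd2 was at 4.39 CPM, below the lowest LTearly library (9.3 CPM), and Kdm5b was at 83.7 CPM, inside the LTearly and above the LTlate range. Its log2 ratio of Ezh1 to Ezh2 counts was -2.05 and that of Kdm5a to Kdm5b 1.89. Its late neutrophil markers summed to 17900 CPM and its progenitor markers to 3610 CPM, both inside the LTearly range.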
